A study of Homo sapiens with 18 samples.

Results

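The semaphorin genes SEMA3A, SEMA3C, SEMA3D, SEMA5A, SEMA6A and SEMA6D, the neuropilin genes NRP1 and NRP2, and the plexin genes PLXNA2 and PLXNA4 were followed as 1 ligand and receptor system across 6 lines of human neuroblastoma cells. These 10 genes (6 ligands and 4 receptors) were found by matching their Ensembl identifiers to GENCODE symbols, and they are 10 of the 63657 genes in the table. Gene names define the set, and the genes were chosen with earlier results of these data known. Transcript levels were measured by RNA sequencing after removal of ribosomal RNA, and are given as FPKM, a fragment count corrected for gene length and library total.

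The 5 resistant lines (ER5, ER28, ER29, ER42, ER47) grow in the presence of entrectinib, an oral kinase inhibitor aimed at ALK, ROS1 and the Trk receptors. Each was grown out of 1 subcutaneous flank tumour that had regressed or stalled and then regrown in an athymic nu/nu mouse dosed at 60 mg/kg, every 4 hours for ER5, ER28 and ER29 and every 6 hours for ER42 and ER47. In culture the resistant cells were taken from 10 nM up to 750 nM entrectinib and were held at 200 nM for harvest. The parental line, SY5Y_BR6, is the TrkB-expressing SH-SY5Y derivative that had been injected. All 6 lines therefore share that transgenic origin, and the labels give neither a drug nor a mouse passage for the parental culture. Drug exposure, growth in a mouse, culture history and resistance cannot be told apart between the resistant lines and the parental line. Each line had 3 libraries, 18 in all. The labels do not say that the 3 came from separate cultures, so p-values measure the spread between these libraries, which may be technical. In bulk RNA, fewer cells of a type and less RNA per cell cannot be told apart.

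Semaphorins are secreted or membrane-bound guidance cues. Class 3 semaphorins are secreted and are bound mainly by a neuropilin, which holds the ligand, in complex with an A-type plexin, which carries the signal into the cell. Class 5 and class 6 semaphorins span the membrane, and class 6 members bind A-type plexins directly. In the developing sympathetic nervous system, from whose neural crest precursors neuroblastoma arises, these cues steer migrating crest cells and growing axons.

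The sympathetic lineage factor HAND2 (347 to 492 FPKM) was present in every library. TH, the enzyme that starts catecholamine synthesis, was at or below 0.581 FPKM in all 18. The summed level of 9 neuroblastoma identity genes was 1177 to 2230.4 FPKM in resistant libraries and 3623 to 3865 FPKM in parental libraries. Markers of other cells gave sums of 3.17 to 5.82 FPKM in resistant and 1.82 to 2.29 FPKM in parental libraries for 8 Schwann cell and glial genes. The sums were 38.8 to 97.1 FPKM in resistant and 38.6 to 46.3 FPKM in parental libraries for 8 fibroblast genes, led by PDGFRA in every line. They were 0.669 to 1.73 FPKM in resistant and 1.36 to 1.90 FPKM in parental libraries for 8 endothelial genes, and 1.34 to 2.32 FPKM in resistant and 1.34 to 1.84 FPKM in parental libraries for 8 leukocyte genes. PECAM1 and CD3E were listed at 0 in all 18 libraries. The fibroblast genes did not move together. COL1A1 was 4.75 to 17.2 FPKM in resistant and 2.27 to 3.30 FPKM in parental libraries. LUM was 0.447 to 4.99 FPKM in resistant and 6.99 to 9.29 FPKM in parental libraries. PDGFRA averaged 12.1 FPKM in ER29, below the parental 18.2, and was above it in the other resistant lines. The part of the Schwann cell and fibroblast markers in the results that follow was not tested. The FPKM values summed to between 848024 and 1106280 per library, 16041 to 18265 genes reached an FPKM of 1, and the read depth behind each library is unknown.

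Of the 10 genes, 3 rose in all 5 resistant lines. These were the ligand genes SEMA3C and SEMA5A and the receptor gene PLXNA4. NRP2 and PLXNA2 rose in 4 lines each, and SEMA3A and SEMA6D fell in 3 and 4 lines. NRP1 went both ways, lower in ER5 and higher in ER28, and SEMA6A was not called in any line. The comparisons of the 5 lines share the same 3 parental libraries, and a call means a limma p under 0.05 after Benjamini-Hochberg (BH) adjustment over the 19799 genes tested.

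Those counts stand against a wide background. Because the members were chosen with earlier results of these data known, the shares beside them are a description and not a test. Among the genes tested, 24.5% were called higher and 27.5% lower in ER5, where 4 of the 9 tested members were higher and 3 lower. In ER28, 14.6% of all genes were higher and 20.9% lower, and 5 members were higher and 2 lower. In ER29, 23.1% of all genes were higher and 27.1% lower, again with 5 members higher and 2 lower. In ER42, 16.9% were higher and 22.8% lower, with 5 members higher and 1 lower. In ER47, 18.8% were higher and 28.1% lower, with 5 members higher and 0 lower in limma, and 0 lower at an unadjusted p under 0.05. Of all tested genes, 5.63% were called higher and 12.3% lower in each of the 5 lines, whereas 3 of the 9 members were called higher in each and 0 lower in each, SEMA6D being called lower in 4 lines and SEMA3A in 3. SEMA3D is the member that was not tested, because it reached 1 FPKM in only 2 libraries and the filter asked for 3.

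**Figure D1:**
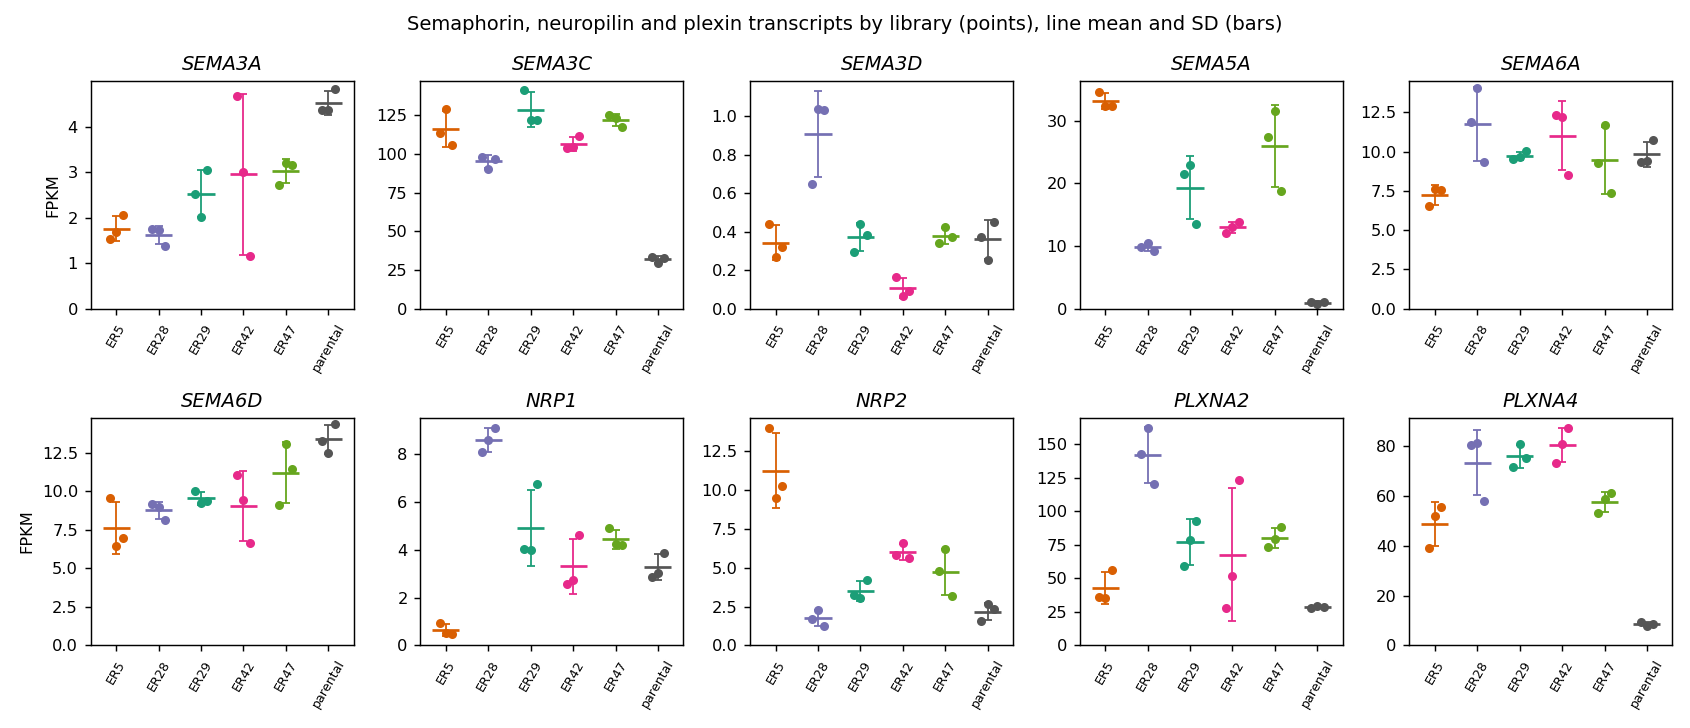
FPKM of each of the 10 genes in the 6 lines (points are single libraries, horizontal bars the line mean, whiskers the SD over 3 libraries; each panel has its own linear axis from 0). SEMA3C, SEMA5A and PLXNA4 of every resistant library lie above every parental library, while NRP1 and NRP2 order the resistant lines in opposite ways.

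SEMA5A (ENSG00000112902, chromosome 5) encodes a membrane semaphorin with thrombospondin repeats that can attract or repel axons. It was low in the parental line and well expressed in every resistant line. The libraries held 34.7, 32.4 and 32.4 FPKM in ER5, 9.82, 10.5 and 9.18 in ER28, 21.5, 22.9 and 13.6 in ER29, 12.1, 13.1 and 13.9 in ER42, and 27.5, 31.6 and 18.9 in ER47, against 1.08, 0.713 and 1.07 in the parental line. No resistant library overlapped a parental one. The ratio of mean FPKM to the parental mean was 34.8 for ER5, 10.3 for ER28, 20.3 for ER29, 13.6 for ER42 and 27.2 for ER47.

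On the log2(FPKM + 1) scale, which understates the change of low genes, the SEMA5A difference was 4.13 for ER5, 2.48 for ER28, 3.35 for ER29, 2.84 for ER42 and 3.76 for ER47, each ± 0.18 (SE). The least certain of these was ER28 (limma, BH-adjusted p = 6.98e-08). Among the resistant lines SEMA5A ran from ER5 through ER47, ER29 and ER42 to ER28, the highest mean being 3.37 times the lowest. In that order the neighbours ER29 and ER42 differed (limma, BH-adjusted p = 0.0415), a call lost in 7 of 14 alternative settings, whose adjusted p ran between 0.00363 and 0.169. It was lost without ER29 replicate 1 (0.143) or 2 (0.169) and without ER42 replicate 1 (0.117), 2 (0.0868) or 3 (0.0553). The other neighbouring pairs of resistant lines did not pass. As background to such pairs, the share of all tested genes that was called was 32.9% for ER5 and ER28, 18.5% for ER5 and ER29, 42.3% for ER5 and ER42, and 20.6% for ER5 and ER47. It was 22.5% for ER28 and ER29, 21.2% for ER28 and ER42, 17.4% for ER28 and ER47, 30.7% for ER29 and ER42, 5.59% for ER29 and ER47, and 19.5% for ER42 and ER47.

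The sequence just upstream of the SEMA5A start is shown, together with that of the upstream start of SEMA3C, because these are the ligand genes that rose in every line. Both are the 250 bases before the transcription start in the RefSeq table on GRCh38.p14, written along the gene's own strand, whereas the FPKM values were made on hg19. Capitals mark matches to the GC box letters GGGCGG or CCGCCC, and adjacent matches can share a base.
SEMA5A promoter, chr5:9546076-9546325 (minus strand): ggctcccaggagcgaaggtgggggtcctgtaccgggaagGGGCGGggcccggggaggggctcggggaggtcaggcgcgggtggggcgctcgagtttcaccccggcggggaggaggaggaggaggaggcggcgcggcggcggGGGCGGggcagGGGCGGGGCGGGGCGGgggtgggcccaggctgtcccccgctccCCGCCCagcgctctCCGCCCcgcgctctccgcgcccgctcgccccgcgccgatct
SEMA3C promoter, upstream start, chr7:80922390-80922639 (minus strand): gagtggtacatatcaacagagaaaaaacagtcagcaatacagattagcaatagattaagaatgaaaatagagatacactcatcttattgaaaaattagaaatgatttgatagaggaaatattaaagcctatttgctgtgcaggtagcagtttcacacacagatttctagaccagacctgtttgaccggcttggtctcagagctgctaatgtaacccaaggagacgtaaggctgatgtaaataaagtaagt
The SEMA5A window is 82% G or C and holds 7 GC box matches and no match to CCAAT or TATAAA on either strand. The SEMA3C window is 36.4% G or C and holds no match to any of the 3, which says only that these letters are not in it. A downstream SEMA3C start in the same table has 77.6% G or C and 3 GC box matches. Across 35116 promoter windows of this length, 42.6% held a GC box match, 32.01% a CCAAT or ATTGG match and 10.7% a TATAAA or TTTATA match, and the median G or C content was 58%. RefSeq promoters were found for 7 of the 10 genes. Which start each line used was not measured.

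Of the 10 nearest tested protein-coding genes on chromosome 5, 5 on each side, 5 were called lower in the mean of the resistant lines and the other 5 were not called, with log2 differences from -0.71 to 0.13. Over all tested genes 23.9% were called higher and 28.9% lower in that comparison. SNHG18, a long noncoding RNA on the other strand that starts 125 bases from the SEMA5A start on GRCh38, was looked up after the values were seen. It held 0.264, 0.177 and 0.324 FPKM in ER5, 0.253, 0.0666 and 0.0826 in ER28, 0.139, 0.467 and 0.0279 in ER29, 0.106, 0 and 0.0599 in ER42, and 0.0812, 0.139 and 0.119 in ER47, against 0, 0 and 0.0164 in the parental line. It lay under the filter and was not tested. An antisense transcript within SEMA5A, SEMA5A-AS1, reached at most 2.08 FPKM in any library. An intronic transcript on the same strand as SEMA5A, AC027335.1, reached at most 2.83 FPKM, and strand could not separate it from SEMA5A. The sources used here do not say whether counting used the strand, so reads of SEMA5A and SEMA5A-AS1 cannot be told apart where they overlap.

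SEMA3C (ENSG00000075223, chromosome 7), a secreted class 3 semaphorin that binds NRP1 and NRP2, was the most abundant of the ligands in every line. Its libraries held 114, 129 and 106 FPKM in ER5, 98.3, 90.2 and 97.0 in ER28, 141, 122 and 122 in ER29, 104, 104 and 112 in ER42, and 125, 123 and 117 in ER47, against 33.2, 29.5 and 32.7 in the parental line. The lowest resistant library stood above the highest parental one by a wide margin, and the replicates of a line lay close together. The ratio to the parental mean was 3.65 for ER5, 2.99 for ER28, 4.04 for ER29, 3.35 for ER42 and 3.83 for ER47. The log2 difference was 1.80 ± 0.06 (SE) in the mean of the 5 lines (limma, BH-adjusted p = 7.60e-12). Its resistant lines spanned 1.35-fold from ER29 to ER28 and no neighbouring pair among them was called, although the F test over the 5 lines was (limma F test, BH-adjusted p = 0.00182). On protein-coding genes only, ER5 and ER47 (limma, BH-adjusted p = 0.0182, in alternatives of up to 0.958) and ER28 and ER42 (0.0111, up to 0.355) were called. SEMA3C made up 90.8 ± 0.732% of the summed FPKM of the 7 class 3 semaphorins for ER5 (SD, n = 3), 90.5 ± 1.05% for ER28, 89.9 ± 1.35% for ER29, 91.3 ± 1.49% for ER42 and 90.6 ± 0.242% for ER47, against 78.2 ± 0.877% in the parental line.

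SEMA3A (ENSG00000075213, chromosome 7), the class 3 semaphorin best known for collapsing growth cones through NRP1, moved against SEMA3C. Its libraries held 1.53, 1.68 and 2.06 FPKM in ER5, 1.75, 1.72 and 1.38 in ER28, 2.51, 2.02 and 3.05 in ER29, 4.68, 3.01 and 1.16 in ER42, and 2.72, 3.20 and 3.16 in ER47, against 4.36, 4.37 and 4.82 in the parental line. All resistant libraries but 1 lay under the parental range, the exception being ER42 replicate 1. SEMA3A fell by 1.00 ± 0.24 (SE) on the log2 scale in ER5 (limma, BH-adjusted p = 0.0025) and by 1.08 ± 0.24 in ER28 (0.00258). In ER29 it fell by 0.65 ± 0.24 (limma, BH-adjusted p = 0.0343), a call lost in 7 of 14 alternatives, with adjusted p from 0.00367 to 0.121. The libraries whose removal ended it were ER29 replicate 1 (0.0661) and 2 (0.121) and parental replicate 1 (0.0651), 2 (0.0647) and 3 (0.0882). The differences of -0.59 in ER42 (0.0637) and -0.46 in ER47 (0.138) did not pass, although ER42 passed without its replicate 1 (0.00339, over a span of 0.00339 to 0.328) and ER47 in a fit on ER47 and the parental line alone (0.00577, over a span of 0.00577 to 0.276). Over the 5 lines SEMA3A fell by 0.76 ± 0.19 (limma, BH-adjusted p = 0.00304), and the spread among the resistant lines did not pass (limma F test, BH-adjusted p = 0.131), except without ER42 replicate 1 (0.0487) or 3 (0.00113) and on protein-coding genes only (0.0424), over a span of 0.00113 to 0.321.

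SEMA3A, SEMA3C and SEMA3D lie in 1 neighbourhood of chromosome 7, within which HGF, the ligand of the MET receptor, lies between SEMA3C and SEMA3A. Genes of that stretch moved in both directions. Among the 10 tested protein-coding neighbours of SEMA3C, 4 were called higher and 3 lower in the mean of the 5 lines, from -2.14 for PCLO to 1.17 for MAGI2. Among those of SEMA3A, which include SEMA3C, 7 were higher and 2 lower. HGF rose by 0.68 on the log2 scale (limma, BH-adjusted p = 0.00196). The windows overlap, so their counts are not independent.

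SEMA3D (ENSG00000153993, chromosome 7), a class 3 semaphorin with a role in neural crest migration in zebrafish, was barely detected. Its libraries held 0.442, 0.268 and 0.319 FPKM in ER5, 0.650, 1.04 and 1.03 in ER28, 0.296, 0.439 and 0.381 in ER29, 0.164, 0.0666 and 0.0932 in ER42, and 0.342, 0.424 and 0.370 in ER47, against 0.375, 0.253 and 0.452 in the parental line. ER28 lay above and ER42 below every other line without overlap. With no filter, where 39254 genes were tested, SEMA3D rose by 0.48 in ER28 (limma, BH-adjusted p = 0.00131) and fell by 0.29 in ER42 (limma, BH-adjusted p = 0.0301) on the log2(FPKM + 1) scale.

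The class 6 semaphorins, transmembrane ligands that act on A-type plexins, were both expressed in every library. SEMA6D (ENSG00000137872, chromosome 15) held 9.57, 6.43 and 6.95 FPKM in ER5, 9.19, 9.02 and 8.16 in ER28, 10.0, 9.27 and 9.36 in ER29, 11.1, 9.47 and 6.64 in ER42, and 9.14, 13.1 and 11.5 in ER47, against 13.3, 12.5 and 14.4 in the parental line. Only ER47 overlapped the parental range. SEMA6D fell by 0.75 ± 0.16 (SE) on the log2 scale in ER5 (limma, BH-adjusted p = 0.00101), by 0.56 in ER28 (0.0133), by 0.45 in ER29 (0.0304) and by 0.54 in ER42 (0.0148). In ER47 the difference was -0.25 (limma, BH-adjusted p = 0.230). The ER29 call of SEMA6D was lost in 7 of 15 alternatives (adjusted p from 0.00153 to 0.0936), among them those without ER29 replicate 2 (0.0777) or 3 (0.0719) and without parental replicate 1 (0.0643) or 3 (0.0936). The ER42 difference shrank to -0.35 without ER42 replicate 3 (limma, BH-adjusted p = 0.0797) and was not called without parental replicate 3 either (0.0533), the alternatives spanning 0.00488 to 0.0797. The ER28 call was lost without parental replicate 3 (0.0505), its alternatives spanning 0.00124 to 0.0505.

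SEMA6A (ENSG00000092421, chromosome 5) held 6.53, 7.59 and 7.58 FPKM in ER5, 11.9, 14.03 and 9.31 in ER28, 9.52, 9.63 and 10.0 in ER29, 12.3, 12.2 and 8.48 in ER42, and 9.25, 11.7 and 7.39 in ER47, against 9.31, 9.42 and 10.7 in the parental line. The 3 ER5 libraries lay under the parental range and the other lines overlapped it. None of the 5 differences passed, the nearest being -0.39 ± 0.16 (SE) in ER5 (limma, BH-adjusted p = 0.0520), which passed in 6 of 15 alternatives, none of them a left-out library (0.00948 to 0.153). The resistant lines differed among themselves (limma F test, BH-adjusted p = 0.0332), but that call was lost in 8 of 23 alternatives (0.00839 to 0.119). These were the fit with no filter (0.0688) and those without ER5 replicate 1 (0.119), 2 (0.0687) or 3 (0.0594), ER28 replicate 1 (0.0666) or 2 (0.0552), and ER42 replicate 1 (0.0504) or 2 (0.0533). SEMA6A values are uncertain, since its antisense gene SEMA6A-AS1 reached 6.16 FPKM and the sources used here do not say whether strand was used.

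PLXNA4 (ENSG00000221866, chromosome 7), the A-type plexin that with NRP1 conveys SEMA3A signals in sensory and sympathetic neurons of mice, rose in all 5 lines. Its libraries held 39.0, 51.9 and 55.6 FPKM in ER5, 80.8, 81.3 and 58.3 in ER28, 71.8, 81.0 and 75.2 in ER29, 73.5, 80.9 and 87.4 in ER42, and 53.2, 59.0 and 61.1 in ER47, against 9.30, 7.84 and 8.63 in the parental line. Resistant and parental libraries did not overlap. The ratio to the parental mean was 5.69 for ER5, 8.55 for ER28, 8.85 for ER29, 9.38 for ER42 and 6.72 for ER47. The log2 difference ranged from 2.37 in ER5 to 3.09 in ER42, each ± 0.13 (SE), and every line had a limma BH-adjusted p of 2.39e-09 or lower. The order from the top was ER42, ER29, ER28, ER47 and ER5, and no neighbours among the resistant lines were called, although ER28 and ER47 were when ER28 replicate 3 was left out (limma, BH-adjusted p = 0.0223, the alternatives spanning 0.0223 to 0.335).

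PLXNA2 (ENSG00000076356, chromosome 1) is a plexin shared by class 3 and class 6 semaphorins. It had the highest mean FPKM of the 4 receptors in ER28, ER29, ER47 and the parental line. It held 36.4, 35.3 and 56.3 FPKM in ER5, 143, 162 and 120.2 in ER28, 59.2, 79.0 and 93.1 in ER29, 28.1, 51.6 and 124 in ER42, and 73.4, 79.5 and 88.3 in ER47, against 27.7, 29.4 and 28.5 in the parental line. The ER42 libraries spread widely and their lowest lay within the parental range, whereas every library of the other 4 lines lay above it. PLXNA2 rose by 2.26 ± 0.36 (SE) on the log2 scale in ER28 (limma, BH-adjusted p = 0.000169), by 1.38 in ER29 (0.00476) and by 1.46 in ER47 (0.00346). In ER5 the difference was 0.53 and missed the threshold (limma, BH-adjusted p = 0.236), but passed in a fit on these 2 lines alone (0.0313, over a span of 0.0313 to 0.534). In ER42 the difference was 0.96 (limma, BH-adjusted p = 0.0441), and single libraries decided it. It was 1.46 without ER42 replicate 1 (limma, BH-adjusted p = 0.00154) and 0.41 without ER42 replicate 3 (0.219), and the call was lost in 8 of 15 alternatives (0.00154 to 0.219), including those without ER42 replicate 2 (0.0685) and without parental replicate 1, 2 or 3 (0.0994, 0.0831 and 0.0886).

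Within ER42, replicate 3 was the highest library in SEMA3C, SEMA5A, PLXNA2, NRP1 and PLXNA4 and the lowest in SEMA3A, SEMA6A, SEMA6D and NRP2. Replicate 1 was the lowest in SEMA3C, SEMA5A, PLXNA2, NRP1 and PLXNA4 and the highest in SEMA3A, SEMA6A and SEMA6D. In SEMA3A and PLXNA2, replicate 1 was the only ER42 library within the parental range. Some genes outside the members also ran in order from replicate 1 to 3, such as CHGA (549, 345 and 167 FPKM). Others did not, such as DPYSL3 (47.2, 36.6 and 44.4). The FPKM sum of ER42 replicate 3, 910158, and the 31.6% taken by its 10 highest genes lay within the range of the other libraries. So did those of ER42 replicate 1 (1061840 and 37.4%). Left out of the mean of the resistant lines, a choice made after seeing the data, the 3 ER42 libraries did not change the count of called members, which remained 5 higher and 2 lower.

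NRP1 and NRP2, the co-receptors of class 3 semaphorins and of VEGF, ordered the resistant lines in opposite ways. NRP1 (ENSG00000099250, chromosome 10) held 0.943, 0.529 and 0.492 FPKM in ER5, 8.11, 8.60 and 9.09 in ER28, 4.03, 3.98 and 6.75 in ER29, 2.55, 2.76 and 4.63 in ER42, and 4.91, 4.23 and 4.20 in ER47, against 2.87, 3.04 and 3.88 in the parental line. The 3 ER5 libraries were below all others and the 3 ER28 libraries above all others. NRP1 fell by 1.37 ± 0.19 (SE) on the log2 scale in ER5 (limma, BH-adjusted p = 2.04e-05) and rose by 1.18 ± 0.19 in ER28 (0.000198). The differences of 0.45 in ER29 (0.0618), -0.01 in ER42 (0.983) and 0.36 in ER47 (0.139) did not pass. ER29 passed without its replicate 1 (0.0439) or 2 (0.0447) and without parental replicate 3 (0.0477), over a span of 0.0219 to 0.309, and ER47 passed in a fit on ER47 and the parental line alone (0.0389, over a span of 0.0389 to 0.314). Across the 5 lines the opposite moves left a mean difference of 0.12 ± 0.15 (limma, BH-adjusted p = 0.512).

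NRP2 (ENSG00000118257, chromosome 2), which binds SEMA3C and SEMA3F, ran in the other order. Its libraries held 14.04, 9.51 and 10.3 FPKM in ER5, 1.72, 2.27 and 1.26 in ER28, 3.24, 3.07 and 4.22 in ER29, 5.85, 6.62 and 5.62 in ER42, and 4.81, 6.20 and 3.22 in ER47, against 1.55, 2.65 and 2.33 in the parental line. ER28 overlapped the parental libraries and the other 4 lines lay above them. NRP2 rose by 1.95 ± 0.20 (SE) on the log2 scale in ER5 (limma, BH-adjusted p = 1.13e-06), by 1.16 in ER42 (0.000404) and by 0.84 in ER47 (0.00316). In ER29 the rise of 0.51 (limma, BH-adjusted p = 0.0474) was lost in 9 of 15 alternatives, with adjusted p from 0.0125 to 0.199, among them those without ER29 replicate 1 (0.0650), 2 (0.0558) or 3 (0.166) and without parental replicate 1 (0.199) or 3 (0.0689). The ER28 difference was -0.21 (limma, BH-adjusted p = 0.471).

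Mean NRP1 was 13.1 times as high in ER28 as in ER5, and mean NRP2 was 6.45 times as high in ER5 as in ER28. NRP1 made up 5.38 ± 0.867% of the summed neuropilin FPKM for ER5 (SD, n = 3), 83.2 ± 4.40% for ER28, 57.8 ± 3.28% for ER29, 35.0 ± 8.82% for ER42 and 49.2 ± 8.10% for ER47, against 60.3 ± 6.07% in the parental line. The sum itself was 11.9 ± 2.67 FPKM for ER5, 10.3 ± 0.526 for ER28, 8.43 ± 2.21 for ER29, 9.34 ± 0.925 for ER42 and 9.19 ± 1.57 for ER47, against 5.44 ± 0.923 in the parental line. These shares are given as a description, since an exact permutation test of 3 libraries against 3 cannot go below p = 0.1. In the order of NRP1 levels, ER28 stood above ER29 (limma, BH-adjusted p = 0.0123) and ER42 above ER5 (4.38e-05). The first of these was lost without ER29 replicate 2 (0.0625, the alternatives spanning 0.00266 to 0.0625). In the order of NRP2 levels, ER5 stood above ER42 (limma, BH-adjusted p = 0.00572), and the pairs of ER42 with ER47 and of ER47 with ER29 were not called.

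**Figure D2:**
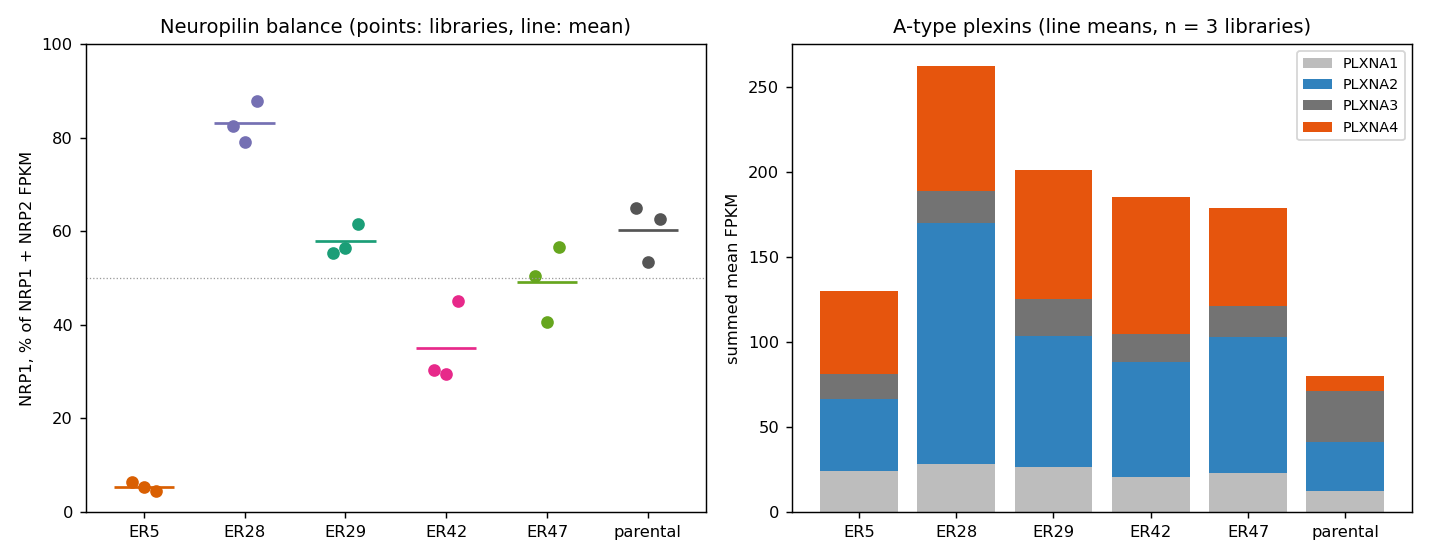
Left, NRP1 as a percentage of NRP1 plus NRP2 FPKM in each library (points) with the line mean (horizontal line); the dotted line marks equal amounts. Right, mean FPKM of PLXNA1 to PLXNA4 stacked for each line (n = 3 libraries). NRP1 gives 5.38% of neuropilin FPKM in ER5 and 83.2% in ER28, and PLXNA4 takes 27.9 to 45.6% of A-type plexin FPKM in the resistant lines, against 10.7% in the parental line.

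The A-type plexins changed in sum and in make-up. PLXNA1 to PLXNA4 together held 129.9 ± 18.005 FPKM for ER5 (SD, n = 3), 262 ± 34.6 for ER28, 201 ± 19.0 for ER29, 185 ± 59.5 for ER42 and 179 ± 11.1 for ER47, against 80.0 ± 2.29 in the parental line. PLXNA4 provided 37.6 ± 4.29% of that sum for ER5 (SD, n = 3), 27.9 ± 2.08% for ER28, 37.9 ± 2.74% for ER29, 45.6 ± 9.91% for ER42 and 32.3 ± 0.411% for ER47, against 10.7 ± 0.868% in the parental line. PLXNA3 provided 11.4 ± 2.59% for ER5, 7.33 ± 1.55% for ER28, 10.9 ± 1.52% for ER29, 9.44 ± 3.58% for ER42 and 10.04 ± 1.43% for ER47, against 38.03 ± 2.28% in the parental line. PLXNA3, a receptor partner of NRP2 in SEMA3F signalling, fell by 0.75 ± 0.09 (SE) on the log2 scale in the mean of the 5 lines (limma, BH-adjusted p = 4.97e-06), and PLXNA1 rose by 0.91 ± 0.08 (3.62e-07).

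**Figure D3:**
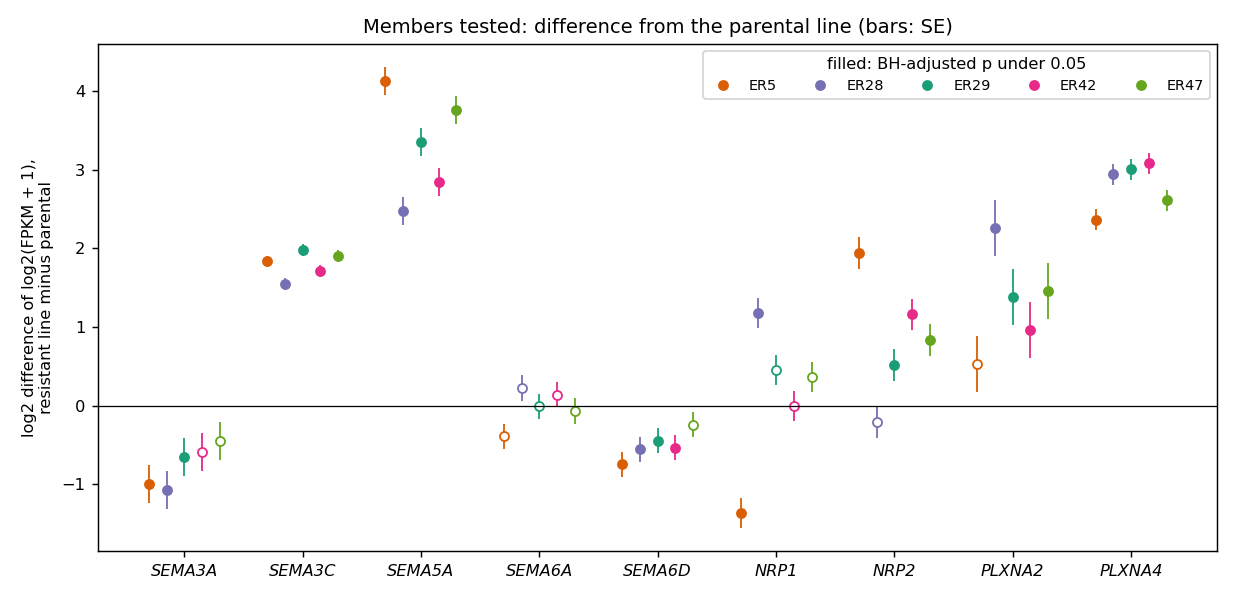
Difference of log2(FPKM + 1) between each resistant line and the parental line for the 9 tested genes (points, bars are SE from the limma model; filled points have a BH-adjusted p under 0.05). SEMA3C, SEMA5A and PLXNA4 are filled and above 0 in all 5 lines, and NRP1 runs from -1.37 in ER5 to 1.18 in ER28.

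Among the 5 resistant lines, 7 of the 9 tested genes differed in the limma F test, where 52.3% of all tested genes did. NRP1 and NRP2 had the smallest p (BH-adjusted p = 1.26e-06 and 1.03e-05), followed by SEMA5A (1.49e-05), PLXNA4 (0.00152), SEMA3C (0.00182), PLXNA2 (0.00918) and SEMA6A (0.0332). SEMA3A did not pass, nor did SEMA6D (0.121), which passed on protein-coding genes only (0.0149), without ER5 replicate 1 (0.0384) and without ER42 replicate 3 (0.0397), over a span of 0.0149 to 0.301. The dosing interval in the mouse was compared next. With the line as the replicate, 3 lines at 4 hours and 2 at 6 hours, 0 of the 9 members were called, and 0 had an unadjusted p under 0.05, in limma on the line means. Their BH-adjusted p ran from 0.829 to 0.994, and 0.0152% of all tested genes were called. An exact two-sided rank-sum test of 3 lines against 2 cannot go below p = 0.2.

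In the mean of the 5 resistant lines, 5 of the 9 tested members were higher and 2 lower, against 23.9% and 28.9% of all tested genes. Its error comes from libraries within lines and not from the spread between lines. With the 6 line means as the unit of the test, where the single parental mean is assumed to vary like the resistant ones, SEMA3C and PLXNA4 remained called (limma, BH-adjusted p = 0.0134 for both, the highest over their alternatives), SEMA5A did not pass (0.0547, likewise the highest), and SEMA3A (0.192), SEMA6D (0.209), NRP2 (0.494) and PLXNA2 (0.227) were lost.

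Further semaphorin genes came from a list of 14 outside the 10. Of the 12 tested, 7 rose and 3 fell over the 5 lines, with a median log2 difference of 0.36, where the median of all tested genes was 0.02. In that comparison 23.9% of all tested genes were called higher and 28.9% lower. The same shares are the background for the plexin, adhesion, VEGF and CRMP lists below. SEMA4A, a transmembrane semaphorin known from immune cells, averaged 2.71, 1.82, 1.97, 1.57 and 1.83 FPKM in ER5, ER28, ER29, ER42 and ER47, against 0.398 in the parental line, and rose by 1.07 ± 0.14 (SE) on the log2 scale (limma, BH-adjusted p = 1.14e-05). SEMA3B rose by 0.88 ± 0.08 and SEMA6C by 0.82 ± 0.08. SEMA5B, the closest relative of SEMA5A, fell by 0.93 ± 0.12 (limma, BH-adjusted p = 1.15e-05), with means of 1.37 FPKM for ER5, 8.91 for ER28, 11.7 for ER29, 9.63 for ER42 and 7.25 for ER47, against 13.5 in the parental line. ER5 thus had the highest SEMA5A and the lowest SEMA5B of the 5. Of the 7 other plexins, all tested, 1 rose and 4 fell (median -0.28). The one that rose was PLXNA1, and PLXNB3 (-0.80 ± 0.13), a receptor reported for SEMA5A, and PLXNB1 (-0.42 ± 0.07), a receptor of SEMA4D, were among those that fell.

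Adhesion molecules that partner with neuropilins were followed next. L1CAM, an adhesion molecule that forms a complex with NRP1 in SEMA3A signalling, held 0.369, 1.76 and 0.809 FPKM in ER5, 12.7, 9.67 and 9.46 in ER28, 6.20, 5.48 and 3.62 in ER29, 34.3, 28.2 and 13.8 in ER42, and 7.49, 4.82 and 5.82 in ER47, against 49.8, 51.4 and 50.4 in the parental line. Every resistant library was below every parental one, and ER5 was the lowest line. L1CAM fell by 2.79 ± 0.23 (SE) on the log2 scale over the 5 lines (limma, BH-adjusted p = 1.03e-07), and ALCAM, a related adhesion molecule, by 1.52 ± 0.13 (1.72e-07). NRCAM, which pairs with NRP2, rose by 0.55 ± 0.18 (limma, BH-adjusted p = 0.0168), a call lost without parental replicate 2 (0.109) and with line means as the unit (0.624), its lowest value over the alternatives being 0.00223. Of the 5 genes in this list 4 were tested, 1 rose and 2 fell.

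The VEGF family, which shares the neuropilins as co-receptors, had 3 tested genes of 8, and all 3 fell (median -0.70). VEGFA, the main angiogenic ligand, averaged 22.8 FPKM for ER5, 34.5 for ER28, 42.4 for ER29, 31.7 for ER42 and 29.0 for ER47, against 94.8 in the parental line, and fell by 1.57 ± 0.09 (SE) on the log2 scale (limma, BH-adjusted p = 2.48e-09). VEGFB fell by 0.70 ± 0.07. PGF fell by 0.48 ± 0.15 (limma, BH-adjusted p = 0.0162), a call lost without parental replicate 2 (0.0609) or 3 (0.0525) and with line means as the unit (0.351), its lowest value being 3.23e-05. In ER42 it averaged 5.51 FPKM, with 8.78 in replicate 3, against 5.59 in the parental line.

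Inside the cell, the collapsin response mediator proteins (CRMPs) bind tubulin and relay SEMA3A signals to the growth cone. A list of 31 genes held the CRMP family, other cytoplasmic effectors and the membrane proteins PLXDC1 and PLXDC2. Of these genes 29 were tested, of which 1 rose and 20 fell over the 5 lines (median -0.32). DPYSL3 held 8.93, 9.16 and 8.29 FPKM in ER5, 86.0, 78.6 and 95.2 in ER28, 18.5, 18.6 and 19.6 in ER29, 47.2, 36.6 and 44.4 in ER42, and 20.6, 21.8 and 29.9 in ER47, against 245, 225 and 232 in the parental line. It fell by 3.05 ± 0.09 (SE) on the log2 scale (limma, BH-adjusted p = 2.79e-12). Its relatives DPYSL5 (-2.63 ± 0.21), CRMP1 (-1.82 ± 0.15) and DPYSL2 (-1.06 ± 0.07) also fell, each in all 5 lines. The remaining CRMP gene, DPYSL4, differed far less, with means from 43.9 FPKM in ER5 to 53.2 in ER28, against 55.8 in the parental line. By line, 19 of the 29 fell for ER5 (27.5% of all tested genes), 16 for ER28 (20.9%), 18 for ER29 (27.1%), 19 for ER42 (22.8%) and 22 for ER47 (28.1%). The summed neuroblastoma identity genes given above were also lower in the resistant libraries, and their part in these falls was not tested. With line means as the unit, VEGFB remained called among the genes named from the further semaphorin, plexin, adhesion, VEGF and CRMP lists (limma, BH-adjusted p = 0.0470, its highest). The others missed the threshold, from 0.0634 for VEGFA and 0.0728 for PLXNA1 through 0.164 for DPYSL3 and 0.223 for L1CAM to 0.624 for NRCAM, each the highest over its alternatives.

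**Figure D4:**
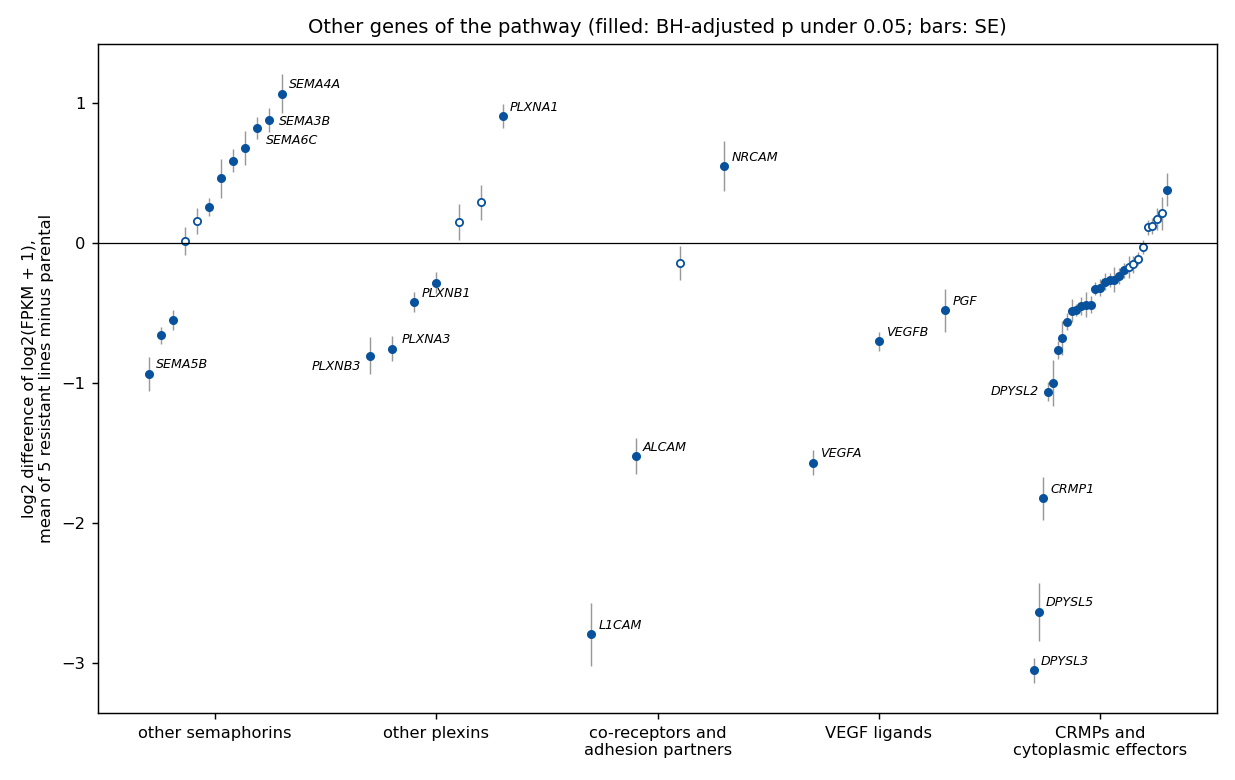
Difference of log2(FPKM + 1), mean of the 5 resistant lines minus parental, for the tested genes of 5 lists (points, bars are SE from the limma model; filled points have a BH-adjusted p under 0.05). The CRMP genes DPYSL3 (-3.05) and DPYSL5 (-2.63) and the adhesion gene L1CAM (-2.79) lie lowest, and SEMA4A (1.07) highest.

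Across the 18 libraries SEMA3C and SEMA5A had the highest correlation of any pair of members (Pearson r = 0.945), then SEMA3C and PLXNA4 (r = 0.925) and SEMA3A and SEMA6D (r = 0.826). These values describe 18 libraries that share 6 lines, and a common step between the parental and resistant lines enters each of them. Of all tested genes with a symbol, those most like SEMA3C were LRRN3 (r = 0.985) and FAM107B (0.980), those most like SEMA5A were ZNF697 (0.985) and FOXN3 (0.983), and those most like PLXNA4 were ST6GAL1 (0.960) and CHRM2 (0.957). For the neuropilins they were TRIB2 (0.943) and ACP1 (0.938) for NRP1, and KIF21A (0.925) and HGF (0.916) for NRP2. PLXNA2 was followed most closely by GPER1 (0.943) and PPP1R13B (0.930), SEMA3A by GLIS2 (0.933) and AP000721.2 (0.903), SEMA6A by PPP1R9A (0.867) and AC027627.1 (0.847), and SEMA6D by TIMM8B (0.836) and B3GNT2 (0.831).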

How the data were processed

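Per the labels' protocols, ribosomal RNA was removed enzymatically, KAPA HyperPrep libraries were built and both HiSeq and NextSeq instruments were used. The sources used here do not say which library ran where, so this possible batch was not tested. The submitters' processing notes name STAR 2.5.3, Subread 1.5.0-p1, featureCounts, STAR-Fusion and the build hg19. The authors deposited FPKM values, 1 column per library. The sources used here do not name the tool that made them.

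Symbols came from GENCODE release 29, which held 52514 of the 63657 identifiers. The 19799 genes that reached 1 FPKM in 3 or more of 18 libraries were tested on log2(FPKM + 1), with 1 limma 3.58.1 model with an intensity trend over all 18 libraries (R 4.3.3), two-sided, BH-adjusted over all tested genes. The model was tested on simulated data first. Depth could not be read reliably from the low FPKM steps, since only 9.85 to 23.2% of low genes sat at the most common step against parental replicate 1, so no count test was run. The replicate numbers did not pair the libraries. All 10 members are named. From each pathway list the called genes with the 4 largest absolute log2 differences are named, and for each member the 2 genes with the highest Pearson r. From the neuroblastoma identity list, 1 gene is not reported here and is left out of the sum. The members and lists were chosen with earlier results of these data known. Alternatives changed the pseudocount, filter, scaling, gene set, trend, block, unit and libraries.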

Additional observations from a re-analysis of the deposited data

Results flagged for a closer look

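The differences from the parental line varied among the 5 resistant lines, by the limma F test on these lines, for 7 of the 9 tested genes. The BH-adjusted p was 1.263e-06 for NRP1, 1.029e-05 for NRP2, 1.491e-05 for SEMA5A, 0.001522 for PLXNA4, 0.001817 for SEMA3C, 0.009183 for PLXNA2 and 0.03318 for SEMA6A. For NRP1 the difference was lower than 0 in ER5 (-1.37) and higher than 0 in ER28 (1.18), both called, while SEMA3C, SEMA5A and PLXNA4 were higher in all 5 lines and differed in size alone. Of all tested genes 52.3% differed among the resistant lines in the same test.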

How the results depend on the processing

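Of 2285 single-gene values under the alternatives, 2134 kept both direction and side of the threshold, 47 stayed uncalled with a change of sign, 75 fell short of the threshold, 29 newly passed it, and 0 called values reversed. The counts that moved by over 1.5 times were these. For members called lower, ER29 had 2, and 0 with no filter, 1 with a filter of 5 FPKM, 1 under quantile normalisation, 0 on protein-coding genes only and 0 to 1 with a library left out. ER42 had 1, and 2 with no filter, 2 under quantile normalisation, 2 on protein-coding genes only and 0 to 2 with a library left out. The unfiltered count includes SEMA3D (limma, BH-adjusted p = 0.0301), which the main filter left out. Protein-coding values were rescaled to a common total before the filter, so the members tested can differ there too. ER28 had 2, and 1 with a filter of 5 FPKM and 1 to 2 with a library left out. ER47 had 0, and 1 when fitted on the 2 lines alone. The mean of the 5 lines had 2, and 1 with a filter of 5 FPKM and 0 with line means as the unit, where members called higher went to 2 against 5. Over all genes, line means gave 41 higher and 159 lower, against 4736 and 5727. The filter of 5 FPKM, which tests fewer genes, gave 2958 higher in ER29 (against 4565), 2206 in ER42 (3350) and 3117 in the mean (4736), and protein-coding genes only gave 2984 lower in ER42 (4522). For the dosing interval, 3 genes were higher, and 0 with a pseudocount of 0.1, 18 with no filter, 0 with a filter of 5 FPKM, 0 on protein-coding genes only and 0 to 3 with a library left out. Apart from the filter, the cause was not tested.

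With the replicate number as a block, no count of members or genes moved by over 1.5 times. NRP1 in ER29 (adjusted p = 0.0462) and SEMA6A in ER5 (0.0365) newly passed and NRP2 in ER29 (0.0508) was lost. The deviations of same-numbered libraries correlated between -0.0733 and 0.0693, and 7 of 15 pairs were closest to their own number, so the numbers did not pair the libraries. Depth is unknown, and low genes such as SEMA3D, SNHG18 and parental SEMA5A carry the least certain values.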
